A study of Homo sapiens with 96 samples.

Results

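Z138 is a human mantle cell lymphoma line that carries CD20, and the arrays described here show how its transcripts stood 4 h after antibodies against CD20 were added. The arrays were chosen by their labels: 3 of cells given rituximab, 3 of cells given LT20, 3 of cells given an isotype antibody and 3 Control arrays numbered 1 to 3, from cells without antibody. They make up 12 of the 24 Z138 arrays and of the 96 arrays of the series, in which 4 lymphoma lines were treated with antibodies against CD20, IgM or IgG. Antibodies were used at 10 µg/ml. Rituximab is a chimeric antibody with a human Fc part and LT20 is a mouse antibody. The isotype antibody is human IgG, so it matches the Fc part of rituximab and not that of LT20. The question was how far transcripts of Z138 move under either antibody, including shifts below 2-fold. Both antibodies are given apart and pooled, the pooled value being the mean of their log2 changes over 6 arrays. Neither the labels nor the methods say whether the 3 arrays of a group come from separate cultures, so the p values measure the spread between arrays, which may be technical.

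CD20, encoded by MS4A1, is a membrane protein of B cells without a known natural ligand. Antibodies that cluster it move it into lipid rafts, where it meets Src family kinases such as LYN and can engage the same machinery as the B cell receptor, with SYK, calcium and the MAPK cascade behind it. MAPK signaling quickly raises immediate early genes such as EGR1, and after them the inhibitors that close the loop, the Sprouty, SPRED and DUSP families. The RGS family switches off G protein signaling instead.

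The cells carried the transcripts that define the line. CCND1, the cyclin that mantle cell lymphoma overexpresses, lay between 3347 and 3803 on the 12 arrays, and SOX11, a transcription factor typical of this lymphoma, between 245 and 381. CD5, a surface marker of most mantle cell lymphomas, reached at most 30.7. Of markers of other cells, 1 of 11 matched T cell, 0 of 10 monocyte and 1 of 9 matched NK cell genes exceeded the signal limit of 100, and CD14 averaged between 0 and 0.66 in the 4 groups. Scaled signals added up to nearly the same total on each array, 8528670 to 8529620 with anti-CD20. The ratio of the 3' to the 5' probe sets of actin, a sign of RNA integrity, was 1.97 to 2.42 with anti-CD20, 2.02 to 2.44 with isotype and 1.99 to 2.24 in Control. No 2 arrays held identical values. A second control triplicate, Controls 4 to 6, differed from Controls 1 to 3 in 4740 genes and is used here as the reference of anti-IgG, with which a deposited overview pairs it, and as an alternative reference of anti-CD20.

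Against Control, anti-CD20 raised 221 genes (2.4%) and lowered 222 (2.41%) of the 9205 tested, 4.81% in all, but only 10 of these changes exceeded 2-fold (0.109%), all of them rises. The largest were those of a probe set shared by the chemokine genes CCL3, CCL3L1 and CCL3L3, of the MAPK inhibitors SPRED2 and SPRY2, of the G protein regulator RGS1, of the phosphatase gene PTPN6 and of EGR1. Changed means an adjusted p below 0.05 in limma together with a mean signal over 100 on either side of the comparison. The median size of a called change was 0.34 on the log2 scale. In 209 of the raised and 211 of the lowered genes, all 6 anti-CD20 arrays lay beyond all 3 Control arrays. This was counted among called genes only and not over all 9205 tested. As the call itself favors separated groups, these counts add no support to it. As these are levels in whole cultures, a change in level per cell and a change in the share of cells that respond cannot be told apart. Leaving out 1 Control array lowered the count of 443 to 246 (replicate 1), 273 (replicate 2) or 283 (replicate 3), and quantile normalization moved the split to 261 higher and 170 lower.

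Rituximab alone raised 135 (1.47%) and lowered 122 genes (1.33%), 2.79% in all, 11 of them over 2-fold (0.12%), all higher. LT20 alone raised 209 (2.27%) and lowered 160 (1.74%), 4.01% in all, with 13 over 2-fold higher (0.141%) and 1 over 2-fold lower (0.0109%), 0.152% together. Under quantile normalization the split for rituximab was 190 higher and 75 lower, so its balance of rises and falls depends on the scaling. For rituximab the count of 257 fell to between 143 and 164 without rituximab replicate 2 or 3 or any 1 of the Control arrays. For LT20 the count of 369 fell to between 226 and 242 without LT20 replicate 2 or 3 or any 1 of the Control arrays.

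The isotype antibody changed 0 genes against the same Control arrays in limma, with 1004 of 13799 probe sets at an unadjusted p below 0.05. Against isotype in place of Control, anti-CD20 raised 335 genes (3.64%) and lowered 180 (1.96%), 5.59% in all, with 11 over 2-fold higher (0.12%) and 1 over 2-fold lower (0.0109%), 0.13% together. This count of 515 was 320 without isotype replicate 1 and 315 without isotype replicate 3. On the first principal component of the 24 Z138 arrays, which holds 53.7% of the variance, the rituximab arrays lay between -17.5 and -13.5 and the LT20 arrays between -15.8 and -12.7. The isotype arrays lay between -29.2 and -28.0 and the Control arrays between -28.7 and -27.4, so both anti-CD20 groups stood clear of both references and the references overlapped. The untreated Controls 4 to 6 lay at 2.39, -12.2 and -12.5, above every anti-CD20 array, so this component does not set anti-CD20 apart from all untreated cells. On the second component Controls 4 to 6 lay apart from these groups, between 29.1 and 30.7.

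The untreated Controls 4 to 6 stood near the anti-CD20 arrays for several of the leading genes. The joint CCL3 probe set had 257, 95.2 and 116 there, a log2 difference of 2.25 from Controls 1 to 3, so that pooled anti-CD20 measured against Controls 4 to 6 gave -0.10. RGS1 had 1236, 657 and 899 on these untreated arrays (log2 1.26 against Controls 1 to 3), SPRED2 130, 51.2 and 49.7 (1.17), PTPN6 484, 202 and 202 (0.97) and SPRY2 128, 73.7 and 85.2 (0.81). RNF144B, lower with anti-CD20, was lower there too, at 169, 219 and 188 (-0.78). EGR1 differed by 0.17 (adjusted p = 0.46), FCMR by 0.01 and PECAM1 by -0.03. Of the triplicate, replicate 4 was the highest for the joint CCL3 probe set, RGS1, SPRED2, PTPN6 and SPRY2. Both sets of differences share Controls 1 to 3 as the reference, and the part that whatever sets the untreated triplicates apart has in the anti-CD20 changes was not tested. Elsewhere Control stands for Controls 1 to 3, and the reference arrays are these and the isotype arrays.

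**Figure D1:**
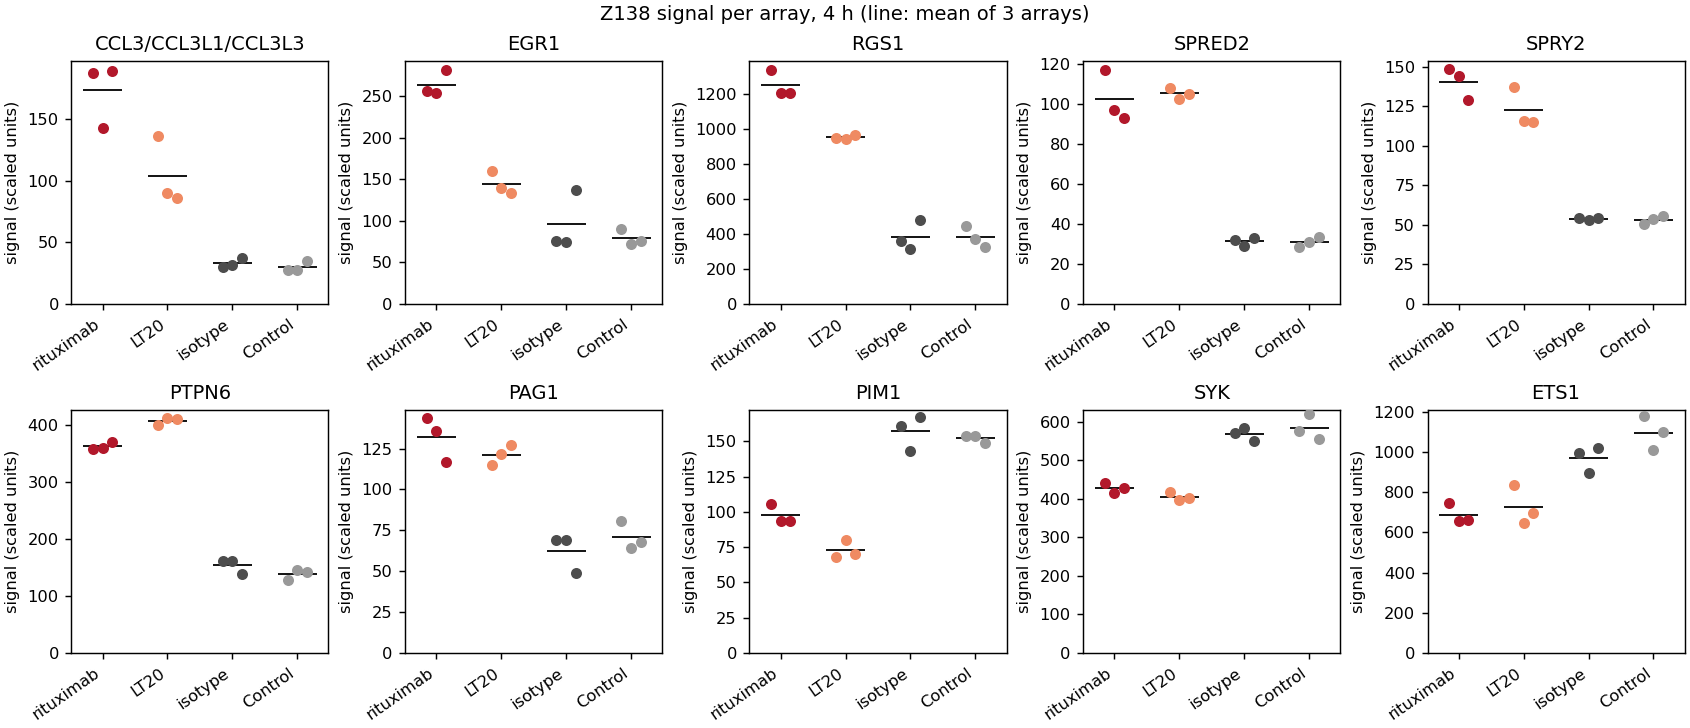
Signal on each array (linear scale, in the authors' scaled units) for 10 genes in Z138 cells given rituximab, LT20 or isotype antibody and in Control cells; points are arrays and the line is the mean of 3. The anti-CD20 points lie above all isotype and Control points for SPRED2, SPRY2, RGS1, PTPN6, PAG1 and the joint CCL3 probe set and below them for PIM1, SYK and ETS1, while 1 isotype array of EGR1, at 137, lies above the lowest LT20 array, at 133.

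Among lists chosen with earlier results of these data known, inhibitors of MAPK and G protein signaling had the largest share of raised members. Of 11 tested, 8 rose under pooled anti-CD20 and 0 fell, beside 198 higher and 204 lower among 7615 genes with 1 symbol. Their median log2 change was 0.63, and -0.02 with isotype, where the median over those 7615 genes under anti-CD20 was -0.02. The rank of this list describes these arrays and is no independent evidence about the pathway. SPRED2, which holds back RAF, had signals of 117, 97.0 and 92.6 with rituximab and 108, 102 and 105 with LT20, against 31.6, 28.8 and 33.0 with isotype and 28.1, 30.7 and 33.6 in Control. Its lowest anti-CD20 array stood far above its highest reference array. The log2 change was 1.75 (95% interval 1.36 to 2.14, adjusted p = 4.3e-06 in limma), a 3.36-fold rise. SPRED2 passes the signal limit narrowly, and without rituximab replicate 1 it is no longer counted.

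SPRY2, a Sprouty inhibitor of receptor and RAS signaling, had 149, 144 and 129 with rituximab and 137.5, 116 and 115 with LT20, against 54.3, 52.8 and 54.4 with isotype and 50.2, 53.5 and 55.3 in Control. The groups did not overlap, and the log2 change was 1.31 (1.07 to 1.54, adjusted p = 2.1e-07). RGS1, which switches off G protein signaling behind chemokine receptors in B cells, had 1336, 1203 and 1207 with rituximab and 948, 939 and 967 with LT20, against 359, 311 and 477 with isotype and 446, 368 and 327 in Control. Its log2 change was 1.53 (1.26 to 1.80, adjusted p = 2.1e-07), and again every anti-CD20 array exceeded every reference array. The other risers were RGS2 (log2 0.81), the ERK phosphatase gene DUSP2 (0.63), SPRED1 (0.59), SPRY1 (0.58) and TRIB1 (0.29). DUSP5, another ERK phosphatase gene, averaged 80.3 with rituximab and 81.5 with LT20, against 30.2 with isotype and 29.8 in Control, below the signal limit, with a log2 change of 1.45. DUSP1, of the same family, had a log2 change of -0.01.

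As EGR1 and these inhibitors rose together, the promoters of 3 of them are shown, each from 250 bases before to 50 bases after the start in RefSeq on GRCh38.p14, written 5′ to 3′ on the gene's strand. EGR1 (chr5:138465229-138465528, plus strand) has the CArG boxes bound by serum response factor in capitals, with first bases 105 and 83 upstream of the start. SPRY2 (chr13:80341077-80341376, minus strand) and DUSP2 (chr2:96145391-96145690, minus strand) have in capitals the letters GCGTGGGCG or GCGGGGGCG, or their reverse complement, which EGR proteins bind, with first bases 41 and 103 upstream.
EGR1: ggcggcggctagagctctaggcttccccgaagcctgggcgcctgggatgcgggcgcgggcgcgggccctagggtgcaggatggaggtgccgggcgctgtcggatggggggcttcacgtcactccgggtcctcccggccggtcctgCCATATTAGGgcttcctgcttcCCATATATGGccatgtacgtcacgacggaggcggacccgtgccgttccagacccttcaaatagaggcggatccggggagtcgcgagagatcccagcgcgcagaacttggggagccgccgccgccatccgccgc
SPRY2: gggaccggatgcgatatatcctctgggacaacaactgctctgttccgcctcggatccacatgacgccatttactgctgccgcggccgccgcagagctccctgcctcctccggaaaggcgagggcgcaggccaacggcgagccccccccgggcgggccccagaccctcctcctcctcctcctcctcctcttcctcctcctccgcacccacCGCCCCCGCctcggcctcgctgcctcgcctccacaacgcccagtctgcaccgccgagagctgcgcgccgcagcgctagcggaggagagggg
DUSP2: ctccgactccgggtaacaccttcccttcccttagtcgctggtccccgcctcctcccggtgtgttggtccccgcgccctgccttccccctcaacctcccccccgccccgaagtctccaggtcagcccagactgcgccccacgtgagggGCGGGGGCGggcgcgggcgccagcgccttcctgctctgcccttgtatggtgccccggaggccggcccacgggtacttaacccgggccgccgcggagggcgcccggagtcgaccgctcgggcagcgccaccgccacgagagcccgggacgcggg
Both strands were searched in 35116 promoter windows, of which 5.77% held the EGR site and 1.29% the CArG box. Of the 8 raised inhibitor genes 7 had windows, 11 in all, and 3 genes had an EGR site in 1 window, DUSP2, SPRY2 and SPRY1 (28 upstream), with 0 CArG boxes in the 11. A match is a string of letters in the window and was not tested for binding.

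The immediate early genes had 4 risers and 1 faller among 16 tested, beside 198 and 204 among 7615 genes with 1 symbol. EGR1, a zinc finger transcription factor, had 257, 253 and 282 with rituximab and 160, 139 and 133 with LT20, against 76.1, 74.9 and 137 with isotype and 90.4, 72.3 and 75.0 in Control. Every anti-CD20 array exceeded every Control array, and 1 isotype array reached the level of the LT20 arrays. The pooled log2 change was 1.30 (0.98 to 1.63, adjusted p = 1.5e-05), 1.74 for rituximab and 0.86 for LT20. A second EGR1 probe set gave 1.61. IER2 rose by 0.47, GEM, a small GTPase gene, by 0.51, and JUND, a part of AP-1, by 0.25, while KLF10 fell by 0.26. FOS, the partner of JUN in AP-1, averaged 31.0 with rituximab and 23.0 with LT20, against 5.17 with isotype and 4.95 in Control, too low to be counted, with a log2 change of 2.65. The level of MYC did not pass the test (log2 change -0.12).

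CCL3 and CCL4 are chemokines that activated B cells release. The probe set shared by CCL3, CCL3L1 and CCL3L3, whose signals cannot be divided among the copies, had 188, 143 and 189 with rituximab and 137, 89.7 and 86.0 with LT20, against 29.6, 31.7 and 36.9 with isotype and 27.1, 27.7 and 34.5 in Control. All anti-CD20 arrays stood above all isotype arrays and all of Controls 1 to 3, though not above Controls 4 to 6, and the pooled rise against Controls 1 to 3 was 4.46-fold, log2 2.16 (1.75 to 2.57, adjusted p = 3.9e-07). CCL4 had a log2 change of 2.23 (1.60 to 2.85, adjusted p = 6.0e-05), but its highest signal was 73.9, so it was not counted.

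Several genes at the head of the receptor cascade moved. PTPN6 encodes SHP-1, the phosphatase that inhibitory receptors recruit. It had 358, 360 and 369 with rituximab and 400, 412 and 410 with LT20, against 161, 160 and 139 with isotype and 129, 146 and 141 in Control, a 2.78-fold rise (log2 1.47, 1.14 to 1.81, adjusted p = 5.4e-06) without overlap. PAG1, a raft adaptor that anchors the kinase CSK, had 144, 136 and 117 with rituximab and 115, 121 and 127 with LT20, against 69.2, 69.1 and 48.6 with isotype and 80.4, 64.4 and 68.1 in Control. Its log2 change was 0.84 (0.58 to 1.09, adjusted p = 0.00016), and CSK itself, which inhibits Src family kinases, rose by 0.60 (0.39 to 0.82, adjusted p = 0.00081).

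SYK, the kinase that carries the receptor signal onward, fell. It had 440, 415 and 428 with rituximab and 417, 397 and 403 with LT20, against 572, 585 and 551 with isotype and 576, 619 and 557 in Control. No array of the anti-CD20 groups reached the references, and the log2 change was -0.49 (-0.64 to -0.33, adjusted p = 0.00026), with -0.46 from a second probe set. The untreated Controls 4 to 6 had 369, 546 and 462 for SYK, with replicate 4 below every anti-CD20 array. Against them the call of SYK was lost. LYN rose by 0.26 (adjusted p = 0.027), a call lost under 6 of 14 alternatives, where the adjusted p reached 0.19. Of 17 tested receptor components 2 rose (PTPN6, LYN) and 2 fell (SYK, CD81), beside 198 and 204 among 7615 genes with 1 symbol. Most of the components, with BTK, BLNK and PLCG2, did not pass the test. PRKD2, a kinase activated by diacylglycerol behind the receptor, had 237, 219 and 219 with rituximab and 222, 232 and 228 with LT20, against 92.9, 87.4 and 94.3 with isotype and 86.4, 108 and 107 in Control, a log2 change of 1.18 (0.90 to 1.45). Other rises of this size, without overlap with Control, were those of MOB3A (log2 1.05), FCMR, the gene of the Fc receptor for IgM (0.98), ZC3H12D (0.98), C16orf54 (0.96) and BASP1 (0.92). Against Controls 4 to 6, MOB3A was -0.29 and C16orf54 -0.052, and BASP1 and ZC3H12D lost their calls.

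Transcripts of CD20 itself moved little. MS4A1 averaged 3824 ± 191 with rituximab and 3666 ± 105 with LT20, against 3455 ± 90.5 with isotype and 3372 ± 115 in Control (SD, n = 3 each), a log2 change of 0.15 (0.07 to 0.23, adjusted p = 0.024). The adjusted p is 0.196 without Control replicate 1, 0.088 without Control replicate 2, 0.06 without rituximab replicate 2 and 0.054 without LT20 replicate 2. The 3 other MS4A1 probe sets gave 0.27 to 0.29 and passed. Of 14 tested genes of CD20 and its raft partners 6 rose and 1 fell, with a median of 0.12. Over 7615 genes with 1 symbol 198 rose and 204 fell, with a median of -0.02. Beside PAG1, CSK, LYN and MS4A1 the called members of the list were the co-stimulatory receptor CD40 (0.41) and the tetraspanin CD53 (0.33), both higher, and the tetraspanin CD81, lower (log2 -0.12). The CD40 call was lost under 8 of 14 alternatives (adjusted p up to 0.26) and that of CD81 under 4 (up to 0.13). For CD40 the isotype value was 0.12 and the adjusted p of anti-CD20 against isotype 0.16.

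**Figure D2:**
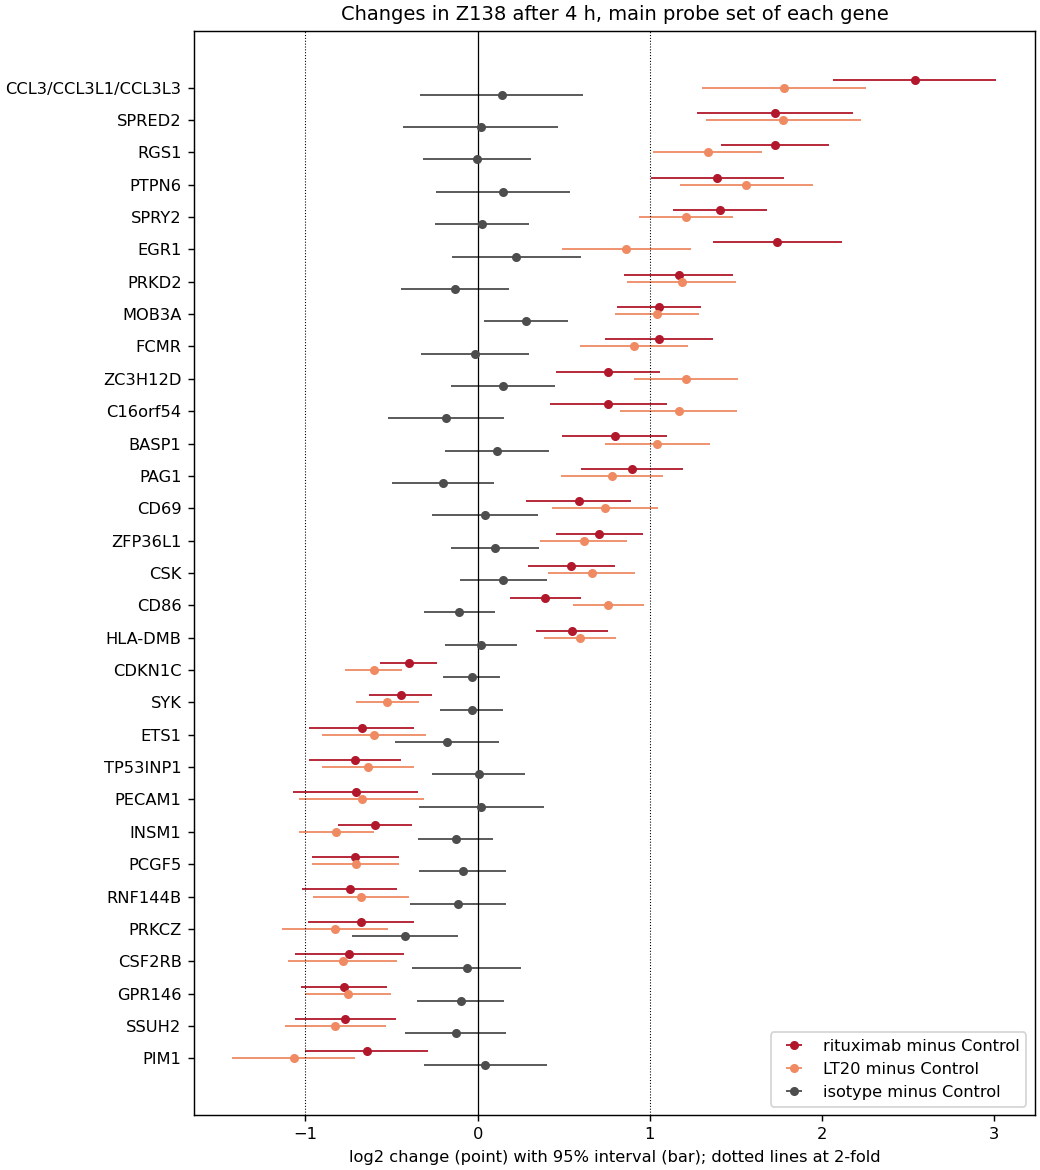
Log2 change against Control with its 95% interval for 31 genes under rituximab, LT20 and isotype in Z138. The rituximab and LT20 points lie on the same side of 0 for the raised and the lowered genes shown, and the isotype point farthest from 0 is that of PRKCZ (-0.42). The genes were chosen by their called anti-CD20 changes, which largely fixes this agreement in sign.

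Surface markers of B cell activation shifted in both directions. CD69, an early activation marker, rose by 0.66 (0.40 to 0.93, adjusted p = 0.0022) and CD86, the ligand of CD28 on T cells, by 0.57 (0.40 to 0.75, adjusted p = 0.00018). CD86 passes the signal limit only through LT20, with 130, 109 and 105 against 89.8, 83.8 and 92.6 with rituximab, and against Controls 4 to 6 its change was -0.079. ICAM1, an adhesion molecule, had a log2 change of -0.53 (-0.77 to -0.29, adjusted p = 0.0063), and its adjusted p was 0.05 without Control replicate 1 and 0.064 without Control replicate 2, neither below the threshold. PECAM1, an adhesion molecule too, fell by 0.69.

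Genes of MHC class II presentation rose in 4 of 14 tested members, with a median of 0.07, beside 198 of 7615 genes and a median of -0.02. HLA-DMB, a chain of the peptide loading factor HLA-DM, had 401, 390 and 367 with rituximab and 428, 387 and 381 with LT20, against 268, 244 and 291 with isotype and 276, 263 and 252 in Control. The groups were separate, with a log2 change of 0.57 (0.39 to 0.75, adjusted p = 0.00022). All 6 probe sets of HLA-DQB1 were higher, by 0.39 to 1.01. HLA-DMA rose by 0.22, and HLA-DQA1 passed in 1 of 3 probe sets. HLA-DRA (0.09) and CD74, the invariant chain (0.05), at far higher signals, did not pass. Against Controls 4 to 6 the values were -0.29 for HLA-DMB and -0.094 for HLA-DQB1. The HLA-DQ probe sets may share sequence with paralogs and are less certain.

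Falls were smaller than rises, and in the pooled comparison no called fall exceeded 2-fold. PIM1, a survival kinase gene downstream of STAT signaling, had 106, 93.2 and 93.6 with rituximab and 68.3, 80.0 and 70.0 with LT20, against 161, 143 and 167 with isotype and 154, 154 and 149 in Control. It stood lower on every anti-CD20 array, by log2 -0.86 (-1.16 to -0.55, adjusted p = 0.00082), and with LT20 by -1.07, the only fall over 2-fold for that antibody. The untreated Controls 4 to 6 had 84.2, 113 and 115 for PIM1, so that they overlapped the rituximab arrays. CSF2RB, the shared receptor chain for IL-3, IL-5 and GM-CSF, fell by 0.76, GPR146 by 0.77, SSUH2 by 0.80, RNF144B, an E3 ubiquitin ligase gene, by 0.71, PCGF5, a Polycomb group gene, by 0.71, and INSM1, a zinc finger repressor gene, by 0.71. TP53INP1, a target of p53, fell by 0.67 and the cyclin kinase inhibitor gene CDKN1C by 0.50. Against Controls 4 to 6, RNF144B was 0.069 and TP53INP1 0.19, and PIM1, CSF2RB, GPR146, SSUH2 and PCGF5 lost their calls. PRKCZ, an atypical protein kinase C gene, was lower than in Control by 0.75 but differed from isotype with an adjusted p of 0.15, and the isotype value itself was -0.42.

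Of 18 tested transcription factors of the B cell program 2 were called higher and 7 lower, at a median of -0.05. Over 7615 genes with 1 symbol the calls were 198 and 204 and the median -0.02. ETS1, which in mice keeps B cells from plasma cell differentiation, had 747, 658 and 661 with rituximab and 834, 648 and 695 with LT20, against 995, 894 and 1020 with isotype and 1182, 1011 and 1100 in Control. Its log2 change was -0.64 (-0.90 to -0.37, adjusted p = 0.0031), and no anti-CD20 array reached a reference array. The untreated Controls 4 to 6 had 587, 1018 and 1082 for ETS1, with replicate 4 below every anti-CD20 array. Against them the call of ETS1 was lost. BACH2 fell by 0.45, the octamer coactivator gene POU2AF1 by 0.38, IRF4 by 0.38, PRDM1, the gene of the plasma cell regulator BLIMP1, by 0.36 and IKZF1 by 0.15, and TCF3 fell in 1 probe set. PAX5, which maintains B cell identity, rose by 0.48 (0.28 to 0.69, adjusted p = 0.0034) and SPIB by 0.22. For PAX5 the adjusted p was 0.064 without Control replicate 3. The untreated Controls 4 to 6 had 2104, 1819 and 2125 for PAX5, and against them its call was lost.

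The remaining lists held few called genes, to be read beside 198 higher and 204 lower among 7615 genes with 1 symbol. Of the calcium genes 2 of 16 rose (STIM2, NFATC1) and ORAI2 fell, but each call of the brightest probe set depends on the setting. That of STIM2 was lost under 8 of 14 alternatives (adjusted p up to 0.19), that of ORAI2 under 9 (up to 0.21) and that of NFATC1 under 4 (up to 0.11). Their other probe sets were not put through the alternatives. Another NFATC1 probe set averaged 170 with rituximab and 181 with LT20, against 103 with isotype and 108 in Control. Another of STIM2 averaged 154 and 169 against 120 and 125, and another of ORAI2 717 and 699 against 898 and 851. Of NF-kB targets and regulators NFKBIE, an inhibitor of NF-kB, rose by 0.60 and ICAM1 fell, of 13 tested. Mitotic genes were 0 higher and 2 lower of 24 (BUB1, PRC1), DNA replication genes 0 higher and 1 lower of 22, and ribosome biogenesis genes 0 of 18 in either direction. Of 12 genes that the study listed as common to its receptor and CD20 treatments, 2 rose here (VASP, ZFP36L1) and 3 fell (RNF144B, ETS1, APBB1IP); that list was chosen on samples of this series and is no independent evidence of direction. VASP, which regulates actin filaments, varied between arrays, at 115, 121 and 122 with rituximab and 212, 133 and 127 with LT20, against 98.8, 74.9 and 164 with isotype and 84.4, 83.2 and 71.0 in Control, so that its isotype range overlapped the treated arrays. Its call was lost under 5 of 14 alternatives (adjusted p up to 0.14).

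**Figure D3:**
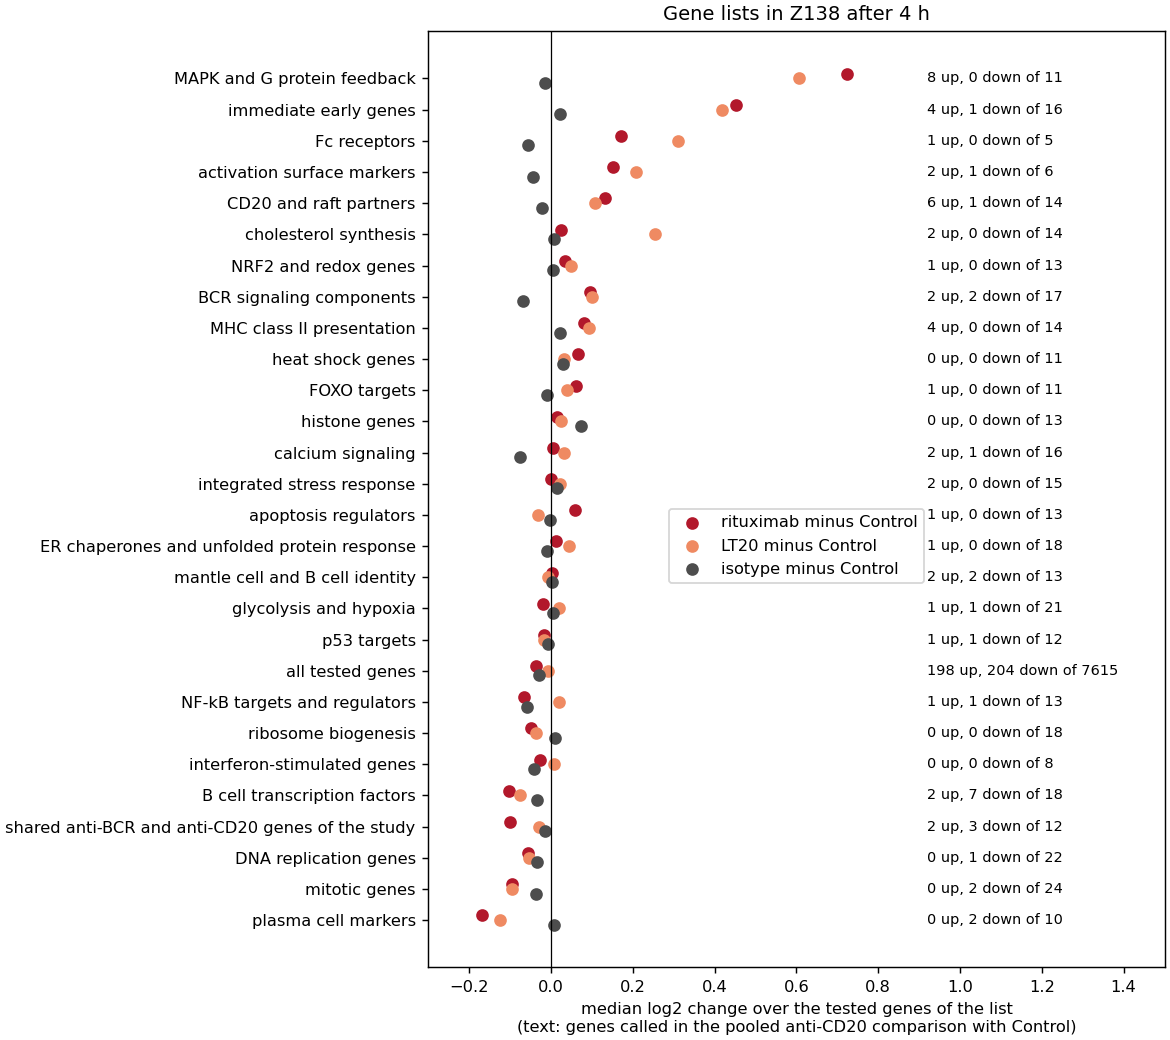
Median log2 change against Control of the tested genes of each list under rituximab, LT20 and isotype antibody in Z138, with the number of members called higher and lower under pooled anti-CD20 and of those tested. MAPK and G protein feedback has the most members called higher, 8 of 11, at medians of 0.72 with rituximab and 0.61 with LT20, and all tested genes lie close to 0.

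Tested directly, LT20 and rituximab differed in 2 entries of 9205 (0.0217%), with 1005 probe sets at an unadjusted p below 0.05. One was NSF, an ATPase gene of membrane fusion, with 591, 568 and 653 with LT20 against 382, 334 and 370 with rituximab, and 369 to 489 with isotype and 449 to 516 in Control. Its log2 difference was 0.74 (0.53 to 0.95, adjusted p = 0.0030), with rituximab below and LT20 above Control. The other was a probe set without a symbol in the annotation used. The count was 0 without rituximab replicate 2 or without LT20 replicate 3, and at most 4 without any other array. Several of the leading genes had lower values with LT20, without passing across all probe sets. The difference was -0.88 for EGR1 (-1.25 to -0.50, adjusted p = 0.12), -0.76 for the joint CCL3 probe set (-1.23 to -0.28, adjusted p = 0.56) and -0.39 for RGS1 (-0.71 to -0.08, adjusted p = 0.64). For SPRED2 it was 0.05 (-0.40 to 0.50) and for PTPN6 0.17 (-0.22 to 0.55), intervals that leave room for differences in either direction.

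Comparisons of each antibody with Control share the Control arrays, so the antibodies were also set side by side with separate references. Of the 135 genes raised by rituximab against Control, 117 were also higher with LT20 against isotype, 86.7% of the first list and 38.6% of the 303 genes of the second. Of the 122 lowered, 46 were also lower, 37.7% of the first and 40% of the 115 of the second. With the references exchanged, 121 of 209 genes raised by LT20 against Control (57.9%) were also higher with rituximab against isotype (57.1% of 212), and 51 of 160 lowered (31.9%) were also lower (41.8% of 122). Of all 9205 genes tested, LT20 against isotype called 303 higher and 115 lower, and rituximab against isotype 212 and 122. Across 13799 probe sets, which are not independent of each other, Pearson's correlation of the log2 changes was 0.56 in both arrangements and Spearman's 0.33. Over the 4073 probe sets with a mean signal above 500, Spearman's was 0.18 for rituximab against Control with LT20 against isotype and 0.34 with the references exchanged, at Pearson's 0.51 and 0.62. These comparisons share no array, but all arrays come from 1 line and 1 array platform.

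Genes called by crosslinking of the B cell receptor offered lists from other arrays. Anti-IgG against Controls 4 to 6 raised 2294 genes (24.9%) and lowered 2530 (27.5%), 52.4% in all. Over 2-fold it raised 308 (3.35%) and lowered 251 (2.73%), 6.07% in all. Of the 308, 78 were higher with pooled anti-CD20 (25.3%, beside 2.4% of all tested) and 3 lower, at a median log2 change of 0.29, and -0.03 with isotype. Of the 251, 0 were higher and 74 lower (29.5%, beside 2.41% of all tested), at a median of -0.20. Read the other way, 176 of the 221 genes raised by anti-CD20 (79.6%) were also raised by anti-IgG, which is 7.67% of the 2294, and 185 of the 222 lowered (83.3%) were also lowered, 7.31% of the 2530. Control replicate 4 stood apart from replicates 5 and 6, at 2.39 on the first component against -12.2 and -12.5. Without it the numbers were 94 of 361 raised and 81 of 300 lowered.

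**Figure D4:**
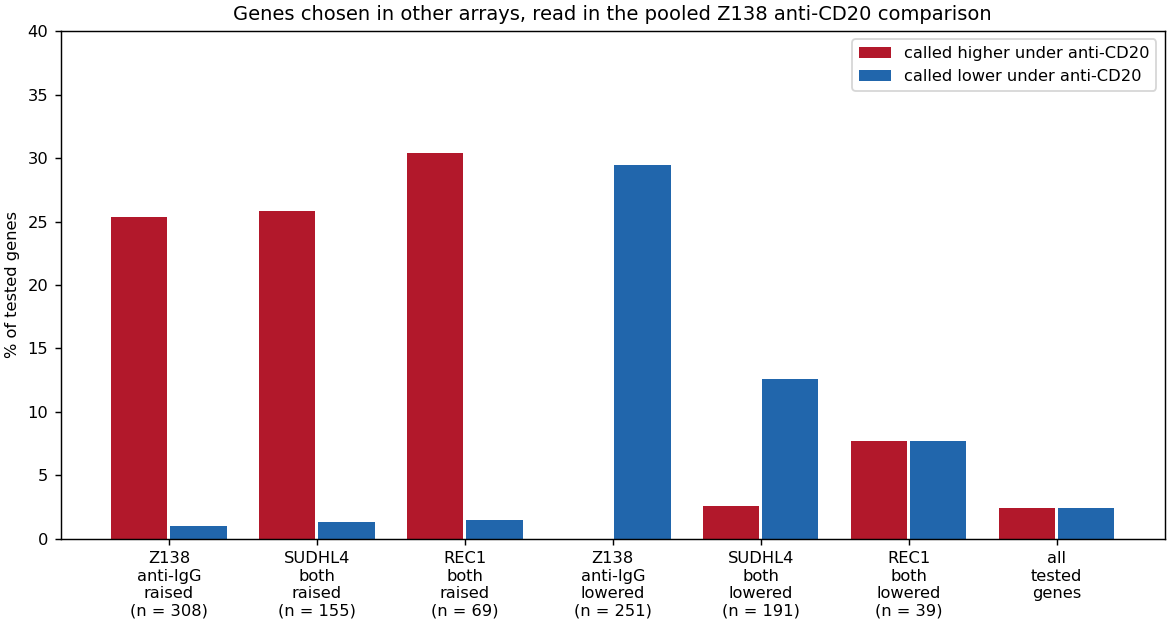
Percentage of genes called higher and called lower with pooled anti-CD20 against Control in Z138, among genes raised or lowered over 2-fold on other arrays and among all tested genes. Between 25.3% and 30.4% of the raised lists were called higher, beside 2.4% of all tested genes, and 29.5% of the genes lowered by anti-IgG were called lower.

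Crosslinking of the receptor gave larger values for some of these genes and smaller or opposite ones for others. The joint CCL3 probe set had log2 changes of 4.59 with anti-IgG and 4.85 with anti-IgM beside 2.16 with anti-CD20, SYK -1.43 and -1.34 beside -0.49, ETS1 -3.08 and -2.25 beside -0.64, and CDKN1C -2.97 and -1.45 beside -0.50. SPRED2 was 1.80 and 2.32 beside 1.75, and PAG1 0.64 and 1.68 beside 0.84. The anti-IgG values are against Controls 4 to 6, which averaged 76.9 for SPRED2 and 112 for PAG1. Controls 1 to 3 averaged 30.8 and 71.0. In signal, SPRED2 averaged 241 with anti-IgG, 102 with rituximab and 105 with LT20, and PAG1 172, 132 and 121. EGR1 was 2.52 with anti-IgG and 1.16 with anti-IgM beside 1.30, and TP53INP1 -1.20 and 0.18 beside -0.67. PAX5 was 0.48 with anti-CD20, -0.55 with anti-IgG and 0.32 with anti-IgM. For PAX5, Controls 4 to 6 averaged 2016 and Controls 1 to 3 averaged 1544. The anti-IgM values share the Control arrays with the anti-CD20 values, and the differences between the treatments were not tested.

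The other lines place the size of the response. Z138, with 10 genes raised and 0 lowered over 2-fold by pooled anti-CD20, stood between OciLy18, with 3 and 0, and the responsive lines SUDHL4, with 236 and 343, and REC1, with 175 and 160. The genes tested numbered 9205 in Z138, 9404 in OciLy18, 8655 in SUDHL4 and 9348 in REC1. This order holds for changes over 2-fold only: at any size Z138 had 221 genes higher and 222 lower, fewer than the 569 and 813 of OciLy18, the 1848 and 2242 of REC1 and the 1893 and 3300 of SUDHL4, and the difference between Z138 and OciLy18 was not tested. Genes that both antibodies raised over 2-fold in SUDHL4 were called higher in Z138 in 40 of 155 cases (25.8%), and those of REC1 in 21 of 69 (30.4%). The lowered genes of SUDHL4 were lower in 24 of 191 (12.6%), at a median of -0.07, and those of REC1 in 3 of 39 (7.69%), with 3 higher. Of all genes tested in Z138, 2.4% were called higher and 2.41% lower. In a limma model of all 96 arrays the response of Z138 differed from that of REC1 in 3186 of 10304 genes (30.9%) and from that of SUDHL4 in 3885 of 9941 (39.1%).

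Individual genes did not follow 1 order of lines. RGS1 had a pooled log2 change of 1.53 in Z138, 2.98 in REC1 and 8.30 in SUDHL4, where its untreated signal was 8.25, against 380 in Z138. Its untreated signal in REC1 was 5.25, near background, and a second RGS1 probe set changed by 0.61 in REC1, with Z138 minus REC1 at 0.81 (adjusted p = 0.056), so the order of Z138 and REC1 depends on the probe set. EGR1 changed by 1.30 in Z138, 1.63 in REC1 and 5.02 in SUDHL4; Z138 minus REC1 was -0.33 (-0.80 to 0.15, adjusted p = 0.34). The joint CCL3 probe set rose less in Z138 than in REC1, by log2 -1.21, and more than in SUDHL4, by 0.49. Both differences rest on Controls 1 to 3 of Z138, which averaged 29.8 for this probe set, where Controls 4 to 6 averaged 156. Against Controls 4 to 6 its change in Z138 turned sign, and the lines were not compared with that reference. SPRED2 rose in Z138 and fell by 0.57 in SUDHL4, a difference of 2.32 (1.60 to 3.04), and PTPN6 rose by 1.47 in Z138, 0.95 in SUDHL4, 0.48 in REC1 and 1.25 in OciLy18. DAPP1 and VPREB3, lower by 0.64 and 1.22 in SUDHL4 and by 0.92 and 0.94 in REC1, stood at -0.00 and -0.01 in Z138. Untreated MS4A1 signals were 3372 in Z138, 4216 in SUDHL4, 3937 in REC1 and 3385 in OciLy18, and were not tested against the size of the response.

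**Figure D5:**
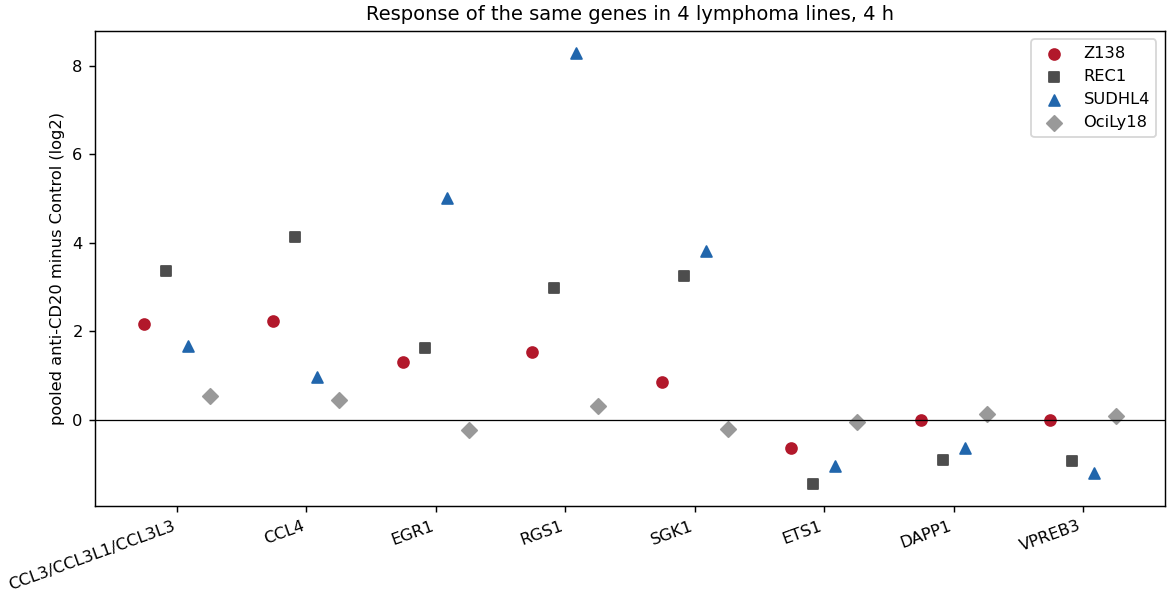
Pooled anti-CD20 log2 change against untreated cells of 8 genes in Z138, REC1, SUDHL4 and OciLy18. RGS1 spans from 0.30 in OciLy18 to 8.30 in SUDHL4, with Z138 at 1.53, while DAPP1 and VPREB3 lie at 0 in Z138 and below it in REC1 and SUDHL4.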

How the data were processed

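The authors made the deposited signal intensities in GCOS according to the paper and by MAS5 according to the sample records, with no version given. The intensities are linear and had been scaled to nearly equal totals; no detection calls were used. After a floor of 1 the signals were log2 transformed. Testing covered the 13799 of 54675 probe sets whose mean exceeded 100 in any Z138 group, in limma 3.58.1 (R 4.3.3), with 1 mean for each of 8 groups over all 24 Z138 arrays, a variance trend and Benjamini-Hochberg adjustment. A gene counted once per direction if 1 of its probe sets was called; the brightest of its probe sets, by mean over the 24 arrays, supplies its values. Of the probe sets 41097 carry 1 symbol, 1801 several and 11777 none, and those of several or none count as entries of their own. Promoters come from RefSeq (GRCh38.p14). Named genes are those changed over 2-fold, up to 10 of the largest rises and falls without overlap with Control (up to 5 against isotype), those that differ between antibodies, up to 3 per list with 3 called members, and the CD20 and cross-line lists; other list members were named after their values were seen. Some entries under the rule are not reported here. Members and lists were chosen with earlier results of these data known. The method was checked on simulated data. Alternatives were an offset of 16, quantile normalization, no signal filter, the 12 arrays alone, a replicate block, Controls 4 to 6 as reference and leaving out each array. Same-numbered deviations correlated at 0.21, 0.13 and 0.12 between LT20 and Control, where the numbers were taken as pairing the arrays from these values alone, and below 0.1 for at least 1 number between any other 2 of the rituximab, LT20, isotype and Control 1 to 3 groups; precision is limited by 3 arrays per group.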

Additional observations from a re-analysis of the deposited data

Results flagged for a closer look

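The responses of 9 genes chosen for comparison between lines were tested for a difference from REC1 and from SUDHL4, 18 tests in all, and 16 passed in a limma model of 96 arrays adjusted over all tested probe sets. All values are log2, Z138 minus the other line, of the pooled anti-CD20 change. Against REC1, Z138 was lower for the joint CCL3 probe set (-1.21, adjusted p = 9.8e-07), RGS1 (-1.44), SGK1 (-2.39), a kinase gene induced by growth factors, and CCL4 (-1.91). It was higher, with falls in REC1 that were smaller or missing in Z138, for ETS1 (0.82), DAPP1 (0.92), an adaptor gene of the B cell receptor, and VPREB3 (0.94). A second RGS1 probe set gave 0.81 against REC1 with an adjusted p of 0.056, so the RGS1 probe sets disagree in sign. Against SUDHL4, Z138 was lower for EGR1 (-3.72), RGS1 (-6.77), SGK1 (-2.97) and the joint MIR155 probe set (-3.59). It was higher for the joint CCL3 probe set (0.49, adjusted p = 0.048), CCL4 (1.26), ETS1 (0.40, adjusted p = 0.013), DAPP1 (0.64) and VPREB3 (1.21). SGK1, CCL4 and the MIR155 probe set stayed below a signal of 100 on the anti-CD20 arrays of Z138, so their differences rest on low values.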

How the results depend on the processing

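Without the signal filter more probe sets were tested and fewer genes called, 264 with pooled anti-CD20, 86 higher and 52 lower (1.4e+02 in all) with rituximab, 202 with LT20 and 324 against isotype. With Controls 4 to 6 as reference the counts were 5608, 5062 and 4674, and 5296 for isotype, with 168, 175 and 184 over 2-fold for pooled, rituximab and LT20. That reference differs from Controls 1 to 3 in 4740 genes. It also turned the sign of these log2 changes: joint CCL3 probe set -0.10, MOB3A -0.29, HLA-DQB1 -0.094, C16orf54 -0.052, DTWD1 -0.44, RNF144B 0.069, TP53INP1 0.19, NSF 0.55, GEM -0.068, APBB1IP 0.027, CD86 -0.079, POU2AF1 0.12, HLA-DMB -0.29, HLA-DQA1 -0.23, CD24 0.25, CD53 -0.10, FLOT1 -0.16, SRGN -0.30, NREP 0.34, VPREB3 2.49 and CD38 0.90. Against Controls 4 to 6 a further 16 named genes kept their sign but lost their call, and 8 gained one. Among those that lost it were RGS1, SYK, ETS1, PAX5, PIM1, PAG1, BASP1, ZC3H12D, CD69, CSF2RB, GPR146, SSUH2 and PCGF5. With 16 added to the signals LT20 changed 9 genes over 2-fold. LT20 against rituximab gave 3 genes with 16 added, 1 with the 12 arrays alone and 9 with the replicate block, and rituximab alone differed between Z138 and REC1 in 1689 genes.

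Leaving out 1 array gave 246 to 450 genes for pooled anti-CD20, 143 to 259 for rituximab, 226 to 374 for LT20, 0 in each case for isotype, 315 to 569 against isotype and 0 to 4 for LT20 against rituximab. Over 2-fold it gave 6 to 11, 8 to 11 and 13 to 16, with 6 for pooled anti-CD20 without rituximab replicate 1. Outside the exchange of controls, 15 of 82 named genes lost their call under at least 1 alternative, 4 gained one and 0 called changes turned their sign in 1145 values. Each gene was followed through its brightest probe set only. Uncalled values near 0 did cross it for 9 genes, DAPP1, VPREB3 and CD74 among them, at sizes of at most 0.12. The MAPK and G protein feedback genes numbered 6 to 8 under the same alternatives. Of 36 comparisons of an array with another group, 20 had the closest deviations at the same replicate number. With the replicate block, a paired reading for LT20 against Control only, 513 genes changed with pooled anti-CD20, 340 with rituximab and 452 with LT20. Signals near the limit of 100 leave SPRED2, CD86 and PECAM1 counted or not by 1 array.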

Other observations

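Genes of cholesterol synthesis, 14 of them tested, were higher in 5 cases with LT20 (median log2 change 0.25), 1 with rituximab (median 0.02) and 2 with both pooled, and lower in 0. Over 7615 genes with 1 symbol, 191 were higher with LT20, 123 with rituximab and 198 with both pooled. HMGCS1, an early enzyme of the pathway, averaged 339 with LT20 and 248 with rituximab, against 192 with isotype and 192 in Control, a log2 change of 0.82 with LT20 and 0.37 with rituximab. SQLE, which oxidizes squalene, had 0.41 with LT20 (adjusted p = 0.0047 in limma) and 0.14 with rituximab (adjusted p = 0.44). None of these genes passed in the direct comparison of the antibodies, so a difference between LT20 and rituximab was not shown. Of the integrated stress response 2 of 15 genes were higher, TRIB3 (0.36) and DDIT4 (0.54).

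Baseline levels of surface genes were low for several markers that other B cells carry. CD22, an inhibitory co-receptor, had at most 39.7 on the 12 arrays, CD37 at most 32.0 and CD27 at most 21.1.

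RARA and DTWD1 varied within groups. RARA, a retinoic acid receptor gene, had 132, 161 and 74.3 with rituximab and 98.8, 92.6 and 83.0 with LT20, against 165, 196 and 424 with isotype and 202, 176 and 87.8 in Control. DTWD1 had 141, 131 and 64.6 with rituximab and 154, 170 and 137.9 with LT20, against 150.2, 87.4 and 144 with isotype and 77.4, 72.3 and 68.1 in Control, so that isotype overlapped the treated arrays. Its pooled rise of 0.81 had an adjusted p of 0.93 against isotype.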
